A study of Mus musculus with 6 samples.

Results

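The mitochondrial ribosomal protein genes were taken as all genes whose symbol begins with Mrpl or Mrps followed by a digit, each read from a probeset that names no other gene. Where a gene had several, the one with the highest average was used. This gave 77 genes of the 19933 with a probeset of their own, 48 named for the large subunit (Mrpl) and 29 named for the small subunit (Mrps). RNA came from NCU10K, an immortalized mouse neural crest cell line grown in DMEM with foetal calf serum and transfected with RNAimax. A low GC control siRNA was given to 1 group and Nedd4 siRNA to the other, and RNA was collected after 48 h from 3 biological replicates of each, with 300 ng of RNA prepared for 1 Affymetrix Mouse Gene 1.0 ST array per replicate. Nedd4 encodes a ubiquitin ligase, and the comparison asked how lowering it altered gene expression in these cells. Both groups were the same cell line given siRNA for the same time, so the arrays describe a short knockdown in 1 line. The study's methods place the RNA in a well of a multiwell plate and its design notes in a larger dish, and which applied was not settled here.

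The mitochondrial ribosome sits in the mitochondrial matrix, bound to the inner membrane, and translates the few messages of the mitochondrial genome into core subunits of the respiratory chain. Its RNAs are encoded in the mitochondrial genome, whereas every one of its proteins is encoded in the nucleus, made in the cytosol and imported. Part of the proteins descend from those of the bacterial ribosome and keep their numbers, and the rest, with higher numbers, have no bacterial counterpart. The symbols do not follow the structure throughout: the proteins of Mrps18a and Mrps30 sit in the large subunit, and that of Mrps36 belongs to the 2-oxoglutarate dehydrogenase complex.

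After Nedd4 siRNA, 9 of the 77 genes rose, 5 fell and 63 did not pass the test (limma, Benjamini-Hochberg adjusted p under 0.05 over all 28440 probesets). This is 18.2% of the members, against 18.7% of all genes with a probeset of their own, of which 9.62% were higher and 9.13% lower. In limma, the share of members past the threshold was thus near the background. The falls were Mrpl34, Mrpl1, Mrpl13, Mrps2 and Mrps33, with log2 fold changes from −0.92 to −0.50. The rises were Mrps18a, Mrpl16, Mrps7, Mrpl51, Mrps18c, Mrpl54, Mrpl52, Mrpl18 and Mrpl35, with log2 fold changes from 0.29 to 0.67. No member changed by 1 or more on the log2 scale. The median log2 fold change over the members was 0.11, against −0.02 over all genes, and 54 of 77 members (70.1%) had a value above 0, against 45.4% of all genes. This lean was not particular to the members. Values above 0 made up 73.5% of respiratory chain subunits and 73.8% of cytosolic ribosomal protein genes, but 41.7% of mitoribosome assembly factors. Every member lay above the array median, unlike all genes, and the part of expression level in the lean was not tested. The values of all 6 arrays did not overlap between the groups for 24 members (31.2%), against 31.7% of all genes. Of these 24, 18 were higher and 6 lower after Nedd4 siRNA, against 3214 higher and 3111 lower among all genes without overlap.

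**Figure D1:**
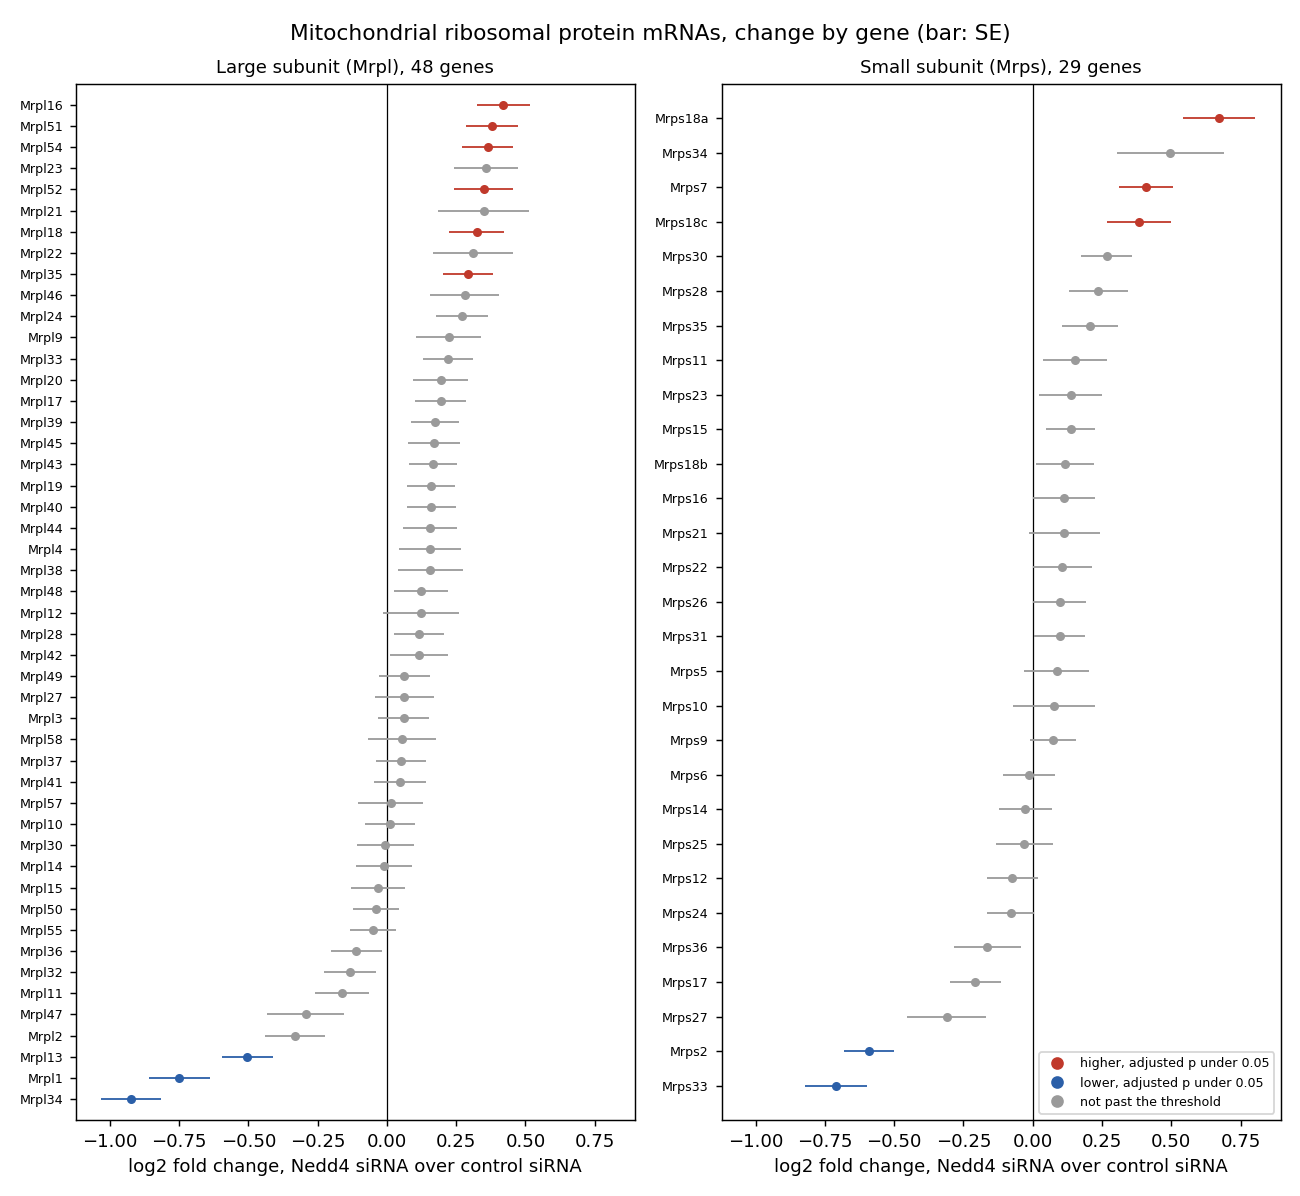
Log2 fold change (Nedd4 siRNA over control siRNA, horizontal axis) of each of the 77 mitochondrial ribosomal protein genes, ordered by value within the large and the small subunit, with the SE from limma as bars. The interquartile range of the 77 values runs from −0.03 to 0.21, and the 5 genes that fell stand apart at −0.50 and below.

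Before these values, Nedd4 itself was checked. Its log2 value was 12.24, 12.35 and 12.34 in control replicates 1, 2 and 3 and 10.45, 10.94 and 10.68 in Nedd4 siRNA replicates 1, 2 and 3. The groups did not overlap, and the level was 3.07-fold lower after Nedd4 siRNA (log2 fold change −1.62, SE 0.12). Array medians lay between 6.28 and 6.35 on the log2 scale and interquartile ranges between 3.06 and 3.33. Of the neural crest and Schwann lineage markers, 10 of 12 had a probeset of their own and all 10 were above the array median, whereas the 4 immune and 3 endothelial markers were below it. Above it were also Tubb3, 1 of 6 measured neuron markers, and Mitf, 1 of 4 melanocyte markers. Of the neuron markers 1 rose, and no melanocyte marker passed the threshold. The mean log2 level of the neural crest markers was 9.54 to 9.61 in the control arrays and 9.31 to 9.44 in the Nedd4 siRNA arrays, with 2 markers higher and 5 lower. The 8 fibroblast and smooth muscle markers, of which 5 were above the array median and 2 rose, had means of 6.72 to 6.81 and 6.97 to 7.04. The part of these shifts in the values of the ribosomal protein genes was not tested, and in bulk RNA fewer cells of a type and less RNA per cell cannot be told apart.

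Among the large subunit genes, 6 rose, 3 fell and 39 did not pass (18.8% past the threshold), with a median log2 fold change of 0.12 and 35 of 48 values above 0. Mrpl34, the homologue of a small bacterial ribosomal protein, had the largest change of all members. Its log2 values were 10.73, 10.87 and 10.59 in control replicates 1 to 3 and 9.68, 9.99 and 9.75 in Nedd4 siRNA replicates 1 to 3. Every control array was above every Nedd4 siRNA array, and the gene was 1.90-fold lower (log2 fold change −0.92, SE 0.11, limma adjusted p = 9.5e-05). Mrpl1 encodes the homologue of bacterial L1, which forms the stalk beside the exit site for tRNA. It was at 9.60, 9.38 and 9.79 in the control arrays and at 8.81, 8.94 and 8.77 in the Nedd4 siRNA arrays. The lowest control array was well above the highest Nedd4 siRNA array, and the log2 fold change was −0.75 (SE 0.11, limma adjusted p = 0.000476). Mrpl13, the homologue of an rRNA-binding protein that joins the bacterial large subunit early, was at 10.60, 10.76 and 10.52 and then at 10.08, 10.16 and 10.13. It fell by 0.50 on the log2 scale (SE 0.092, limma adjusted p = 0.00216), and the 3 Nedd4 siRNA arrays lay close together.

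The 6 large subunit rises were smaller than these falls. Mrpl16 encodes the homologue of bacterial L16, which lies near the tRNA binding sites of the large subunit. Its log2 values were 9.23, 9.49 and 9.29 in the control arrays and 9.76, 9.83 and 9.68 in the Nedd4 siRNA arrays. The groups were apart and the gene rose by 0.42 (SE 0.096, limma adjusted p = 0.00896). Mrpl51, without a bacterial counterpart, was at 9.75, 9.98 and 9.93 and then at 10.29, 10.32 and 10.19. Its log2 fold change was 0.38 (SE 0.093, limma adjusted p = 0.0135). A second probeset of Mrpl51 gave 0.21 and did not pass (limma adjusted p = 0.175), and the mean of both passed at 0.30 (limma adjusted p = 0.0395). Mrpl54, also specific to mitochondria, was at 8.43, 8.62 and 8.38 in the control arrays and at 8.84, 8.81 and 8.87 in the Nedd4 siRNA arrays. The log2 fold change was 0.36 (SE 0.092, limma adjusted p = 0.0160), and control replicate 2 was the closest of the control arrays to the Nedd4 siRNA group.

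The other rises of the large subunit lay close to the threshold. Mrpl52, specific to mitochondria, rose by 0.35 (SE 0.11, limma adjusted p = 0.0412). Mrpl18, the homologue of the bacterial protein that binds 5S rRNA, was just inside the threshold, at 8.0, 8.27 and 8.25 and then at 8.44, 8.59 and 8.46, with a log2 fold change of 0.32 and an adjusted p of 0.0431 in limma. Mrpl35, the homologue of bacterial L35, was the last inside, at 7.81, 7.95 and 7.86 and then at 8.22, 8.22 and 8.06 (0.29, limma adjusted p = 0.0433). Just outside stood Mrpl2, whose bacterial homologue is needed for the joining of the subunits, and Mrpl23, whose homologue borders the exit of the peptide tunnel. Mrpl2 was at 7.21, 7.48 and 7.08 and then at 6.85, 6.99 and 6.93 (−0.33, limma adjusted p = 0.0562). Mrpl23 was at 10.57, 10.96 and 10.50 and then at 11.04, 11.0 and 11.06 (0.36, limma adjusted p = 0.0565), and control replicate 2 nearly reached the Nedd4 siRNA arrays. The groups of both genes were apart without overlap. The sizes of change just inside and just outside the threshold were alike.

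Other large subunit genes stayed near 0. Mrpl10 encodes the base of the stalk that receives translation factors, and it was at 9.52, 9.59 and 9.57 and then at 9.51, 9.70 and 9.50 (log2 fold change 0.01). Mrpl30, the homologue of bacterial L30, was at 9.27, 9.25 and 8.98 and then at 9.13, 9.27 and 9.08 (−0.01). The groups of both overlapped. For 34 of the 48 genes the 95% interval of the log2 fold change lay within 0.5 of 0, so that for these a larger change in either direction was outside the interval. This is not a count of unchanged genes, since it includes the risen Mrpl35 (interval from 0.098 to 0.489).

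**Figure D2:**
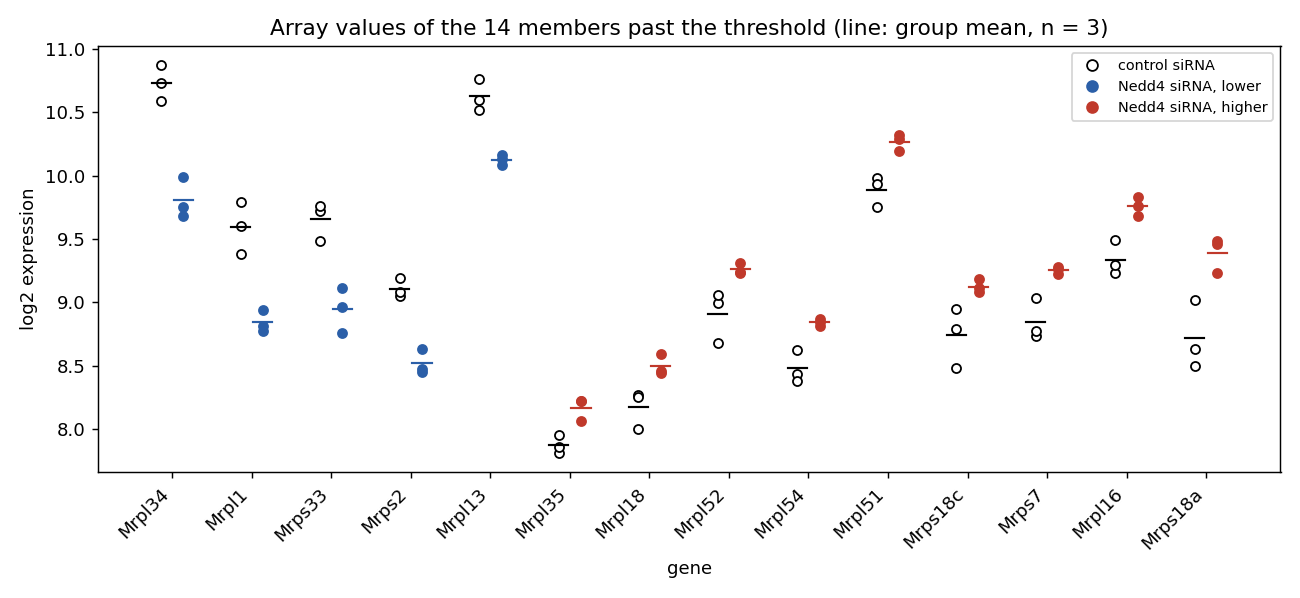
Log2 expression (vertical axis) on each array (points) of the 14 mitochondrial ribosomal protein genes past the threshold, with control siRNA arrays as open points, Nedd4 siRNA arrays as filled points coloured by direction, and lines at the group means. Levels are read within a gene and not between genes. The groups do not overlap for any of the 14 genes, and the gap is widest for Mrpl34 and narrow for genes such as Mrpl18 and Mrpl35.

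Among the small subunit genes, 3 rose, 2 fell and 24 did not pass (17.2% past the threshold), with a median log2 fold change of 0.10 and 19 of 29 values above 0. Mrps2 encodes the homologue of bacterial S2. Its log2 values were 9.05, 9.08 and 9.19 in control replicates 1 to 3 and 8.45, 8.63 and 8.47 in Nedd4 siRNA replicates 1 to 3. Both groups were tight and apart, and the log2 fold change was −0.59 (SE 0.091, limma adjusted p = 0.000672). Mrps33, without a bacterial counterpart, was at 9.48, 9.72 and 9.76 and then at 8.96, 9.11 and 8.76. It fell by 0.71 on the log2 scale (SE 0.11, limma adjusted p = 0.000783). The second probeset of Mrps33 fell too, from 8.64, 8.92 and 8.82 to 8.15, 8.34 and 8.04 (−0.62, limma adjusted p = 0.00150).

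Mrps18a, Mrps18c and the third gene of this family, Mrps18b, encode relatives of the 1 bacterial protein S18. Mrps18a, the member with the largest rise, was at 8.63, 9.02 and 8.50 in the control arrays and at 9.46, 9.23 and 9.48 in the Nedd4 siRNA arrays. The log2 fold change was 0.67 (SE 0.13, limma adjusted p = 0.00303), and control replicate 2 again lay closest to the other group. Mrps18c was at 8.79, 8.95 and 8.48 and then at 9.18, 9.11 and 9.08, a rise of 0.38 (SE 0.11, limma adjusted p = 0.0384). Mrps18b gave 0.12 and did not pass (limma adjusted p = 0.602). The changes of the 3 relatives were not tested against each other.

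Mrps7 encodes the homologue of bacterial S7, which organizes the head of the small subunit. Its values were 8.73, 9.03 and 8.77 and then 9.28, 9.22 and 9.26, a rise of 0.41 (SE 0.098, limma adjusted p = 0.0116). Mrps30, whose protein sits in the large subunit, was at 8.32, 8.48 and 8.21 and then at 8.61, 8.62 and 8.58. Its groups were apart but the log2 fold change of 0.27 did not pass (limma adjusted p = 0.0760). Mrps34 had the largest change among members that did not pass, 0.50 with an SE of 0.19. Its values of 7.55, 7.61 and 6.87 in the control arrays and 7.77, 8.20 and 7.55 in the Nedd4 siRNA arrays overlapped, and the adjusted p in limma was 0.114. With the replicate number as a block in limma, Mrps34 passed (adjusted p = 0.00939), but whether these numbers pair the arrays is not settled. Near 0 stood Mrps6, the homologue of bacterial S6, at 10.85, 11.04 and 11.09 and then 10.98, 11.02 and 10.94 (−0.01), and Mrps14, the homologue of bacterial S14, at 7.14, 7.39 and 7.36 and then 7.21, 7.30 and 7.30 (−0.03). The 2 groups overlapped for each of these genes.

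With 3 arrays against 3, the two-sided exact permutation test gave p = 0.1 for every one of the 24 members whose groups were apart, the smallest value this design allows. The methods' t-test, an analysis with the siRNA as its factor and Benjamini-Hochberg adjustment, left 3 of the 77 members past 0.05. They were the falls of Mrpl34 (adjusted p = 0.0343), Mrpl13 (adjusted p = 0.0409) and Mrps2 (adjusted p = 0.0287), and none of the 9 rises passed. By this test the share of members was smaller than the 9.05% of all genes, and this difference was not tested. At an unadjusted p under 0.05, limma passed 23 of 77 members (29.9%), against 28.4% of all genes. Without Nedd4 siRNA replicate 1, 7 members passed, the 5 falls and 2 rises, and without control replicate 2, 21 passed, 16 higher and 5 lower. Among the members, the calls that rose depended on the array left out, while the falls numbered 5 to 7 in every one of these refits. The shares over all genes in these refits are not given here, so this pattern cannot be called particular to the members.

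Divided by origin instead of subunit, the 44 genes with a bacterial homologue held 6 rises and 4 falls (22.7% past the threshold). Their median log2 fold change was 0.11. The 33 genes specific to mitochondria held 3 rises and 1 fall (12.1%) with a median of 0.12. Over all genes, 18.7% passed. The origin was read from the number in the symbol, up to 36 for Mrpl and up to 21 for Mrps. With Mrps18a and Mrps30 placed in the large subunit and Mrps36 left out, the large subunit had 50 genes with 7 rises and 3 falls (20%). Its median was 0.14. The small subunit then had 26 genes with 2 rises, 2 falls (15.4%) and a median of 0.10. Rises and falls both occurred in each group of either division, and the differences between the groups were not tested.

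The positive median of the members was uneven across arrays. Each gene was set against its mean over the 6 arrays and the median deviation over the members was read in each array. It was −0.14 in control replicate 1, 0.063 in control replicate 2 and −0.10 in control replicate 3, and 0.042, 0.098 and 0.012 in Nedd4 siRNA replicates 1, 2 and 3. Control replicate 2 thus lay among the Nedd4 siRNA arrays, and the groups overlapped. Over the members together, replicate 2 was the highest in both groups, and each Nedd4 siRNA array was above the control array of the same number. Whether the replicate numbers pair the arrays is not settled. The large subunit gave −0.13, 0.053 and −0.10 and then 0.038, 0.11 and 0.025, and the small subunit −0.14, 0.072 and −0.088 and then 0.077, 0.070 and −0.018. The median over all genes stayed between −0.020 and 0.030. The interquartile range of the whole array moved in part with these values, at 3.06 in control replicate 1, 3.33 in control replicate 2 and 3.18 in control replicate 3 against 3.23, 3.30 and 3.14 in Nedd4 siRNA replicates 1, 2 and 3. After quantile normalization, which makes these ranges equal, the median log2 fold change was 0.11 for the large and 0.088 for the small subunit. The median of the small subunit, 0.10, moved with the array left out. It was 0.057 without control replicate 1, 0.15 without control replicate 2, 0.042 without control replicate 3 and 0.15 without Nedd4 siRNA replicate 3, and that of the large subunit was 0.12, 0.18, 0.097 and 0.14 in the same refits.

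**Figure D3:**
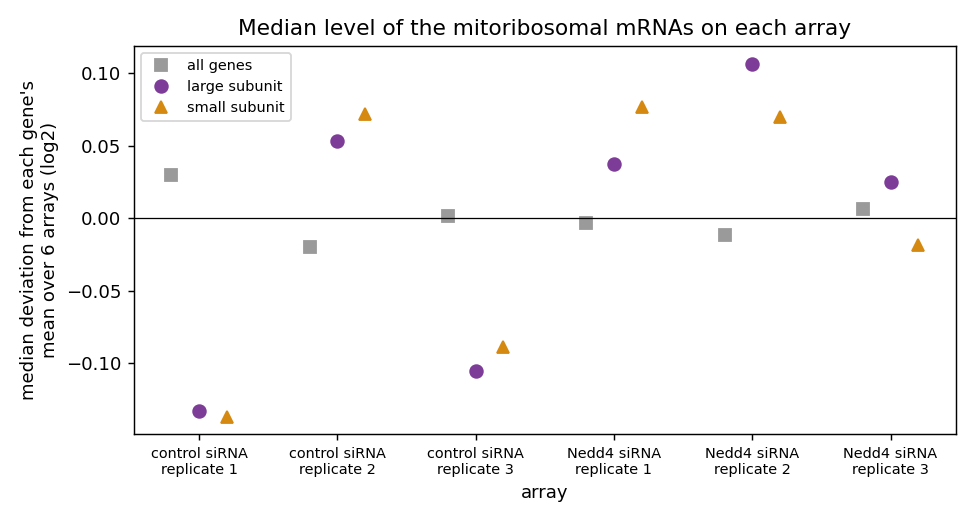
Median deviation (log2 scale) of the large subunit genes, the small subunit genes and all genes from each gene's mean over the 6 arrays, for each array (horizontal axis). Control replicate 2 lies above 0 for both subunits, among the Nedd4 siRNA arrays, while the medians over all genes stay between −0.020 and 0.030.

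Promoters of nuclear genes for mitochondrial proteins are known to carry sites for ETS factors, for NRF1 and for YY1. RefSeq promoter windows on GRCm38.p6 ran from 250 bases before to 50 bases after the start. They were matched by the gene identifier that the array annotation gives for each symbol, for 68 of the 77 members (74 windows). Both strands were searched for 4 motifs: ETS as CCGGAAG, NRF1 as GCATGCGC, YY1 as AAGATGGC and the E-box bound by MYC and related factors as CACGTG. Overlaps between motifs were allowed. The ETS letters were in 25 of the 74 member windows (33.8%), against 8.86% of all 32851 windows. These windows, of 27025 genes, were not limited to genes on the array or above the array median, where every member lay. The part of this in the shares of the 4 motifs was not tested. Among the 4 fallen members with a window 2 held it, and among the 8 risen members 5 did. The stretches below are those of the members with the smallest p, with the ETS letters in capitals, as they read on the strand of the gene:
Mrpl34 (fell, chr8:71464863-71464922, plus strand, start site 37 bases after the first capital): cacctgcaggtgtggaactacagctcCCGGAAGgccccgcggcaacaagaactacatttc
Mrps33 (fell, chr6:39810887-39810916, minus strand, motif 38 bases after the start site): aagtaaaggggggcgggcCTTCCGGggacg
Mrps18a (rose, chr17:46110944-46111003, plus strand, start site 26 bases after the first capital): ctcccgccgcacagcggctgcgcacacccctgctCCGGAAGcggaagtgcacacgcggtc
Mrpl51 (rose, chr6:125192084-125192143, plus strand, start site 90 bases after the first capital): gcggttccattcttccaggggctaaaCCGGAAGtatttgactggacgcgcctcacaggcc
The same letters stood in promoters of genes that fell and of genes that rose, and the median log2 fold change was 0.12 for members with them and 0.073 for those without.

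The YY1 letters were in 12 member windows (16.2%, against 2.75% of all windows). They were in 3 of the 8 risen members with a window and 0 of the 4 fallen ones. In the 4 members shown, they lay 11 to 23 bases after the start site:
Mrps18a (rose, chr17:46111004-46111033, plus strand, 11 bases after the start site): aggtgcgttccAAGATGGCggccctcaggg
Mrps7 (rose, chr11:115604147-115604176, plus strand, 18 bases after the start site): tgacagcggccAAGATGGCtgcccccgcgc
Mrpl35 (rose, chr6:71823743-71823772, minus strand, 23 bases after the start site): aggcaggctgcAAGATGGCggcttccatct
Mrps27 (log2 fold change −0.31, not past the threshold, chr13:99344789-99344818, plus strand, 14 bases after the start site): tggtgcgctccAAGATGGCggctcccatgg
The members with the YY1 letters had a median log2 fold change of 0.057 and those without 0.11. Yy1 itself rose by 0.34 (SE 0.082, limma adjusted p = 0.0132), and whether this bears on these promoters was not tested.

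The NRF1 letters were in 8 member windows (10.8%, against 2.71% of all windows), none of a member past the threshold. The 2 with the smallest p are shown, both with the letters on the strand opposite to the gene:
Mrpl33 (log2 fold change 0.22, chr5:31613891-31613950, plus strand): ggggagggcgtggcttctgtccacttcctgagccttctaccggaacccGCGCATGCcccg
Mrpl22 (log2 fold change 0.31, chr11:58171604-58171663, plus strand): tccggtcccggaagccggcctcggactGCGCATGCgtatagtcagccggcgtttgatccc
The medians were 0.18 with and 0.092 without the NRF1 letters. The E-box was in 7 windows of 5 members (9.46%, against 7.15% of all windows), among the risen members in Mrps18c alone:
Mrps18c (rose, chr5:100798569-100798628, plus strand, start site 163 bases after the first capital): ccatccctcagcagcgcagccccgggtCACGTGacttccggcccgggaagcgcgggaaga
In all, 39 of the 68 members held at least 1 of the 4 motifs. A match of letters is a description of the window and not evidence of binding.

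Some of these genes start close to a neighbour on the opposite strand, and whether they share a promoter was not tested. For 26 members, the start of another gene lay back to back within 1000 bases, and 24 of these neighbours were measured. Of the 24, 2 rose and 4 fell, so 6 of 24 passed, against 18.7% of all genes. In no pair did both genes pass the threshold. The share of all genes with such a neighbour is not given here. Mrpl46 and Mrps11, both members, start 42 bases apart and gave log2 fold changes of 0.28 and 0.15, neither past the threshold. Hira, encoding a histone chaperone and starting 113 bases from Mrpl40, rose by 0.61 (limma adjusted p = 0.000471), while Mrpl40 was at 0.16. Eme1, encoding a subunit of a DNA endonuclease and starting 48 bases from Mrpl27, fell by 0.62 (limma adjusted p = 0.00225), while Mrpl27 was at 0.063. Ptcd2, which acts in mitochondrial RNA processing and starts 108 bases from Mrps27, fell by 0.51 (limma adjusted p = 0.00139), and Mrps27 was at −0.31 without passing the test. Klc4, encoding a kinesin light chain and starting 141 bases from Mrpl2, rose by 0.39 (limma adjusted p = 0.00743), while Mrpl2 was at −0.33. The other changed neighbours were Cyb5rl beside Mrpl37 (−0.34 and 0.05) and Ska3 beside Mrpl57 (−0.38 and 0.01). Of the 14 members past the threshold, 4 had such a neighbour, and 3 of these neighbours were measured. None of the 3 passed. Mrpl51 rose beside Ncapd2, which gave −0.36 (limma adjusted p = 0.0867), and Mrps7 rose beside Gga3, which gave −0.02 (limma adjusted p = 0.928). Mrpl18 rose beside Tcp1, which encodes a chaperonin subunit and gave 0.12 (limma adjusted p = 0.474).

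Lists of genes that act with the mitochondrial ribosome were read beside it. Of 5 further mitoribosome proteins not named Mrpl or Mrps, 4 had a probeset of their own and none passed, with Chchd1 at 0.20 (limma adjusted p = 0.220). Of 24 assembly factors, 0 rose and 2 fell, with a median of −0.04. These were Nsun4, which methylates mitochondrial ribosomal RNA and takes part in assembly (log2 fold change −0.84, SE 0.13, limma adjusted p = 0.000643), and Trub2, a pseudouridine synthase (−0.38, limma adjusted p = 0.0259). Of 13 translation factors, 1 rose and 1 fell: Mrrf, the ribosome recycling factor, fell by 0.58 (SE 0.095, limma adjusted p = 0.00101), and Gfm2, the GTPase that acts with it, rose by 0.32 (limma adjusted p = 0.0387).

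Among 16 measured mitochondrial aminoacyl-tRNA synthetases, 2 rose and 2 fell. Wars2, for tryptophan, fell by 0.43 (limma adjusted p = 0.0112), and Mars2 and Cars2, for methionine and cysteine, rose by 0.36 and 0.32 (limma adjusted p = 0.0167 and 0.0430). Of 19 genes that maintain mitochondrial DNA and RNA, 2 fell and 0 rose, namely Prorp, the nuclease of mitochondrial RNase P (−0.65, limma adjusted p = 0.000448), and Lrpprc, which stabilizes mitochondrial messages (−0.35, limma adjusted p = 0.0456). Of 11 regulators of mitochondrial biogenesis, Yy1 rose and Pprc1, a coactivator, fell by 0.56 (limma adjusted p = 0.00468). Of 3 measured genes for insertion into the inner membrane and docking of the ribosome, Oxa1l, the insertase, fell by 0.30 (limma adjusted p = 0.0255). The 22 genes of mitochondrial protein import had 2 rises, Pmpcb and Tomm20 (both 0.31), and 1 fall, Tomm5 (−0.51, limma adjusted p = 0.0342). Of 12 measured genes of mitochondrial stress response and protein quality control, the protease genes Lonp1 (0.55, limma adjusted p = 0.00501) and Spg7 (0.47, limma adjusted p = 0.0326) rose and none fell.

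The cytosolic ribosome and the respiratory chain gave the widest lists for comparison. Of 61 cytosolic ribosomal protein genes, 0 rose and 2 fell (3.28%), Rps15a by 0.72 and Rplp1 by 0.54 (limma adjusted p = 0.000205 and 0.00149), with a median of 0.05. Of 83 nuclear genes for respiratory chain subunits, of which those outside complex II work in complexes that also hold products of the mitochondrial ribosome, 14 rose and 3 fell (20.5%), with a median of 0.15. Among them, Atp5pb rose by 1.00 and Atp5e by 0.56 while Atp5md fell by 1.01 (limma adjusted p = 1.5e-05, 0.00627 and 2.9e-05), all subunits of ATP synthase. Of the messages the mitochondrial ribosome translates, 2 had a probeset of their own: COX2 gave −0.02 (limma adjusted p = 0.930) and ND3 −0.0033 (limma adjusted p = 0.988), neither past the threshold. The differences between these lists were not tested.

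**Figure D4:**
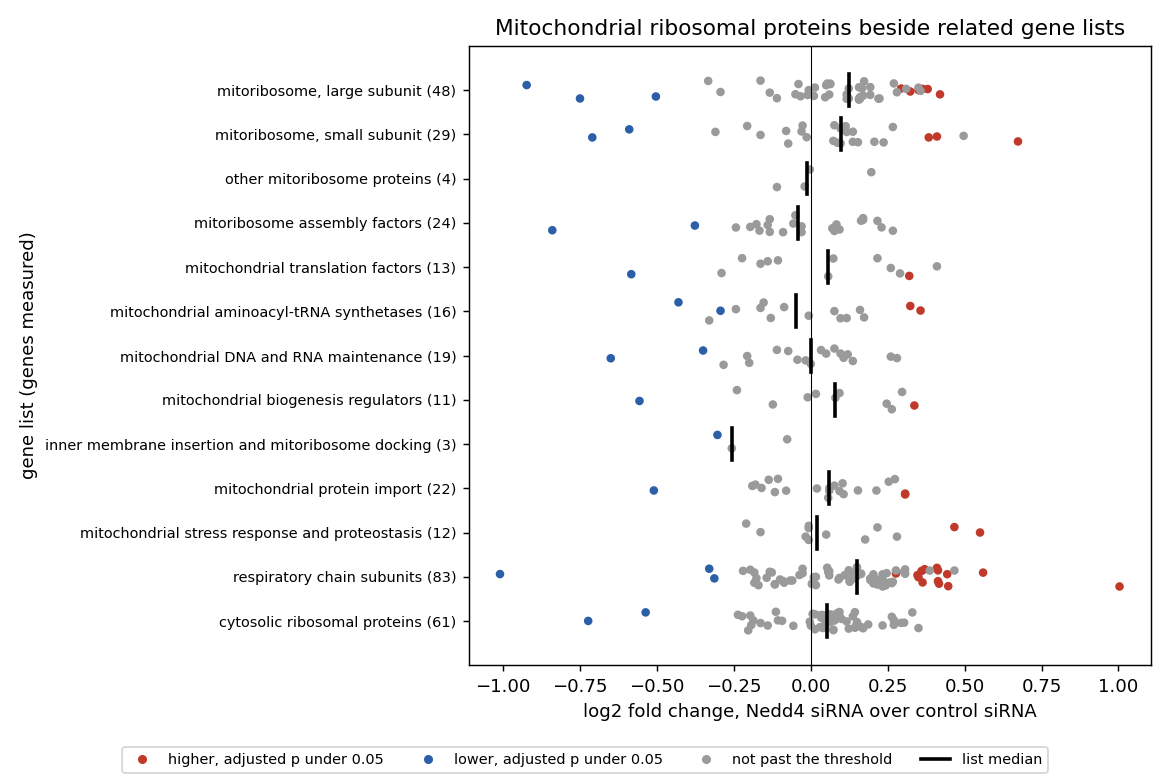
Log2 fold change (Nedd4 siRNA over control siRNA, horizontal axis) of each measured gene in the mitochondrial ribosomal protein lists and 11 related lists (the mitochondrial genome is not drawn), with genes past the threshold coloured by direction and the list median as a bar. Cytosolic ribosomal proteins have 0 rises among 61 genes and respiratory chain subunits 14 among 83.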

How the data were processed

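The authors scanned the arrays into Partek (6.5, according to the submitters' processing notes), applied RMA background correction and a GC content correction, summarized probes by their mean and deposited log2 values to 2 decimals. Whether arrays were also normalized to each other is not given in the sources used here, and no further normalization was applied. Probesets with 1 gene symbol (21780), several (1618) or none (5042) were read from GEO's platform annotation.

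The 3 Nedd4 siRNA and 3 control siRNA arrays were compared with limma 3.58.1 (lmFit, eBayes, no covariate) in R 4.3.3, with Benjamini-Hochberg adjustment over 28440 probesets. The methods' t-test is an ANOVA with the siRNA as its factor. In data simulated from these arrays, 36 of 100 changes of 0.5 and 89 of 100 changes of 1 on the log2 scale were recovered, with 8 false calls. No other probesets were changed there, whereas 18.7% of genes passed in the real comparison. The adjustment was therefore stricter in the simulation, and these shares do not give the recovery in the real comparison. The precision is limited by the few arrays. Counts, exact permutation tests, motifs and figures used Python 3.11.15, pandas 2.3.3, NumPy 2.4.6, SciPy 1.17.1 and Matplotlib 3.10.9. RefSeq gave the promoter windows.

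The members and gene lists were chosen with earlier results of these data known. Every member past the threshold was named, with array values for the 6 smallest p of each subunit, the 2 nearest to 0 and the 2 on each side of the threshold. From the other lists, up to 3 genes past the threshold were named, or 1 where none passed (both measured genes of the mitochondrial genome), and in the promoters up to 4 members per motif. Mrps34, Mrps18b and the genes named as promoter neighbours, with their members, were added after their values were seen. Alternatives were the test, the normalization, the probesets kept, the threshold, the replicate block and leaving out each array.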

Additional observations from a re-analysis of the deposited data

How the results depend on the processing

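The median log2 fold changes of both subunits ran from 0.042 to 0.18 under the alternatives that gave them, and no result reversed. Each moved by less than the SD of the array medians within groups (0.077 for the large and 0.086 for the small subunit). Refits without 1 array keep all the others and could hardly move by more, so this is no measure of stability. The counts of calls depended on the test and the threshold. Except for the methods' t-test, shares over all genes under the alternatives are not given here, so the counts describe the members alone. By the methods' t-test, the large subunit had 2 members past the threshold in place of 9, with 0 rises in place of 6, and the small subunit 1 in place of 5, with 0 rises in place of 3 and 1 fall in place of 2. At an adjusted p under 0.01, the large subunit had 4 with 1 rise and the small subunit 3 with 1 rise. Leaving out 1 array at a time gave 4 to 14 members of the large subunit, with 1 to 11 rises and 3 to 4 falls, and 3 to 7 of the small subunit, with 1 to 5 rises and 2 to 3 falls; the lowest totals came without Nedd4 siRNA replicate 1 and the highest without control replicate 2. Quantile normalization gave 18 members past the threshold and median centring 14, and placing genes by structure, chosen after seeing the data, changed no count by over 1.5 times. Mrpl34, Mrpl13 and Mrps2 passed at 0.05 in every alternative, and Mrpl1, Mrps33, Mrps18a and Mrpl16 in all but the methods' t-test. Mrps7 and Mrpl51 also lost the call without Nedd4 siRNA replicate 1, and Mrpl54, Mrpl52, Mrpl18, Mrpl35 and Mrps18c in 4 to 7 alternatives. Deviations of arrays with the same replicate number had correlations of −0.012, 0.47 and −0.013. Those of arrays with different numbers ran from −0.43 to 0.42. These few values do not settle whether the numbers pair the arrays. With the replicate block, 16 members passed: all 14, and also Mrpl2 and Mrps34.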

Other observations

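Mrpl53 shares its probeset with Ccdc142, so its level could not be read apart and it was not counted among the members. This probeset was at 7.38, 7.47 and 7.33 in control replicates 1 to 3 and at 7.64, 7.67 and 7.51 in Nedd4 siRNA replicates 1 to 3 on the log2 scale. The groups did not overlap, and the log2 fold change of 0.21 (SE 0.089) did not pass the test (limma adjusted p = 0.147).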
